A study of Homo sapiens with 18 samples.

Results

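The regions described here are stretches of open chromatin that were called with the second AHR hairpin, shAhR-2, in both neuroblastoma cell lines and in no library of the empty vector, pLKO. All 18 full peak lists were merged on the 22 autosomes wherever peaks shared at least 1 bp, which gave 146903 regions on hg19. A region was a member if it had a peak in all 6 shAhR-2 libraries and in 0 of the 6 pLKO libraries, and 2623 regions met this rule, 1.79% of all. The reverse rule, a peak in all 6 pLKO libraries and in 0 of the 6 shAhR-2 libraries, held at 4 regions, 0.00272% of all. Membership was chosen from these peak calls, so presence with shAhR-2 and absence with pLKO are a description and were not tested.

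Kelly and BE2C are established human neuroblastoma lines, and the series title places the study in neuroblastoma with MYCN amplification. Cells of each line were transduced with lentivirus carrying shAhR-2, the other AHR hairpin shAhR-1, or pLKO without a hairpin, and each of the 6 groups held 3 libraries. Open chromatin was mapped by ATAC-seq, in which a transposase cuts accessible DNA and leaves sequencing adapters there. The level of AHR was not analysed here, and the labels speak of triplicates without saying whether these were separate cultures, so each p-value reflects variation among libraries that could be purely technical.

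AHR encodes the aryl hydrocarbon receptor, a ligand-activated transcription factor that pairs with ARNT and binds DNA at regulatory elements. Most regulatory elements that open or close between states of a cell are enhancers far from promoters, while promoters of widely used genes tend to stay open. In neuroblastoma, a small set of lineage factors holds the adrenergic state through such enhancers, and other factors hold a mesenchymal state. Gene annotation and genome sequence on hg19 were not used here, so the members are given by position, without gene names or sequence.

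The shAhR-2 lists were the longest of both lines, without overlap with the other lists. In Kelly the autosomal lists held 58932 to 64151 peaks with shAhR-2, 8967 to 23738 with shAhR-1 and 19445 to 33907 with pLKO. In BE2C they held 73755 to 79435 peaks with shAhR-2, 24894 to 43702 with shAhR-1 and 33379 to 43173 with pLKO. Background read overlap, worked out from each list's folds and p-values and higher in deeper libraries, was 2.56 to 4.42 reads with shAhR-2 and 1.26 to 1.92 with pLKO. Replicate 1 of Kelly shAhR-1 stood apart with the shortest list, and replicate 1 of BE2C shAhR-1 had the longest list of the 6 shAhR-1 libraries.

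With every list of a line cut to the length of the shortest, 8967 peaks in Kelly and 24894 in BE2C ranked by p-value, 19 regions met the rule and 12 met the reverse rule, and 1 of the 19 overlapped a member at full length. With only the shAhR-2 and pLKO lists cut, to the shortest of them in each line (19445 peaks in Kelly and 33379 in BE2C), 87 regions met the rule and 43 the reverse, and 36 of the 87 overlapped a full-length member. The cut keeps the peaks ranked first by p-value, so by its own rule it favours stronger members. These 36 had a median lowest fold of 6.62, against 3.74 in the 2587 others. The part that depth and list length have in the number of members was not tested.

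Members were sites of middling strength in the shAhR-2 lists. The fold of a peak is the signal at its summit over the local background of the same library, the authors' own value. In Kelly the member peaks had a median fold of 5.11, 4.81 and 5.06 in the 3 shAhR-2 libraries, where all peaks of those lists had 4.88, 4.67 and 4.88. In BE2C the member peaks had 4.99, 4.84 and 4.42, and all peaks had 5.20, 4.84 and 4.4. The median member peak thus sat near the middle of its own list, with a fold percentile of 52.3 ± 0.554 for Kelly and 49.2 ± 1.96 for the BE2C libraries (SD, n = 3 each). Ranked by −log10 p, its percentile was 48.4 ± 0.437 for Kelly and 44.5 ± 2.67 for the BE2C libraries (SD, n = 3 each).

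The fold and the p-value of a peak together give the number of reads that overlap at its summit. At members the median was 19 to 22 overlapping reads in the Kelly shAhR-2 libraries and 24 to 27 in BE2C. At a site at the genome-wide background, the weakest peaks called held 9 to 12 reads and a fold of 2.36 to 2.80 in the shAhR-2 lists, against 7 to 9 reads and a fold of 3.11 to 3.51 in the pLKO lists. Of the 2623 members, 1612 (61.5%) had a fold above 3.51 in every shAhR-2 library, and 2456 (93.6%) had a median fold above it. The value of 3.51 is the highest of the 6 pLKO limits, and local background at the members in the pLKO libraries is not given by lists that hold no peak there. A fold also depends on the depth of its library. A shAhR-2 fold above 3.51 therefore does not show that a pLKO list could have called the site, and this was not tested.

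**Figure D1:**
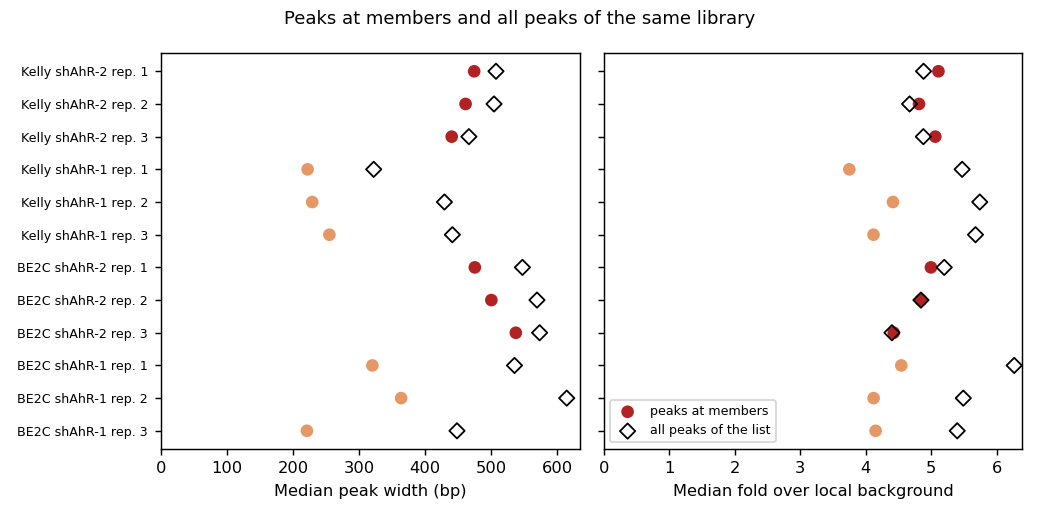
Median peak width in base pairs (left) and median fold over local background (right) for each shAhR-2 and shAhR-1 library, with filled circles for peaks at members and open diamonds for all peaks of the same list. At members the shAhR-2 peaks sit close to their list's median fold, while the shAhR-1 peaks sit below it, at 3.75 to 4.54 against list medians of 5.39 to 6.26.

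Folds varied among members and partly tracked between the lines. The median over the 6 shAhR-2 libraries ran from 3.44 at the 5% point to 7.22 at the 95% point of members, with a median of 4.92. Across the 2623 members, the median fold in Kelly and in BE2C had a Spearman correlation of 0.44, given as a description, since all members are read from the same libraries. Base composition of the members was not worked out. At the other 28797 regions with a peak in all 6 shAhR-2 libraries, which had at least 1 pLKO peak, the median fold was 7.01. A lowest fold of at least 5 was reached by 334 members, 12.7%, against 60.7% of those other regions.

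The 10 members with the highest lowest fold lay on 8 chromosomes and had folds between 7.28 and 12.7. The strongest by this order was on chromosome 3 at 69021346 to 69022148, 803 bp wide. Its folds were 8.66, 8.50 and 8.53 in Kelly shAhR-2 and 9.77, 10.3 and 9.01 in BE2C shAhR-2, from 34 to 59 overlapping reads. Replicate 1 of BE2C shAhR-1 also had a peak there, with a fold of 6.81. The nearest pLKO peak of any library was 3.05 kb away.

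The next member, on chromosome 14 at 62304030 to 62304888, had folds of 8.92, 8.70 and 8.12 in Kelly shAhR-2 and 11.8, 9.53 and 9.04 in BE2C shAhR-2. No shAhR-1 library had a peak there, and the nearest pLKO peak was 22.2 kb away. On chromosome 18 at 13823813 to 13824375, Kelly shAhR-2 had 8.92, 9.77 and 10.1 and BE2C shAhR-2 had 8.76, 9.18 and 7.94. At this site the lines overlapped in fold, and replicate 2 of Kelly shAhR-1 had a weaker peak, with a fold of 4.67.

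On chromosome 14 at 88479965 to 88480554 the folds were 8.21, 8.0 and 7.87 in Kelly shAhR-2 and 10.7, 8.14 and 9.59 in BE2C shAhR-2, with no shAhR-1 peak. On chromosome 5 at 114970151 to 114970674 they were 9.93, 7.98 and 8.87 in Kelly shAhR-2 and 11.8, 9.77 and 7.83 in BE2C shAhR-2. Here replicate 1 of BE2C shAhR-1 reached 9.22, the highest shAhR-1 fold among the 10. On chromosome 4 at 108104151 to 108104889 the 3 BE2C shAhR-2 folds, 12.7, 10.6 and 10.2, all exceeded the Kelly shAhR-2 folds of 8.43, 7.82 and 7.87.

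The order between lines was reversed on chromosome 11 at 59961129 to 59962237, where Kelly shAhR-2 had 9.22, 8.48 and 9.54 and BE2C shAhR-2 had 7.51, 7.92 and 7.93. The last 3 had folds between 7.28 and 9.84. They were 99599707 to 99600680 of chromosome 6, 62934434 to 62935427 of chromosome 13, where replicate 2 of Kelly shAhR-1 had a fold of 5.30, and 160659260 to 160660178 of chromosome 3. Of the 10, 6 also met the rule when only the shAhR-2 and pLKO lists were cut, and at the other 4 a peak remained in 5 of 6 shAhR-2 libraries. With lists cut to the shortest of the line, 0 of the 10 met it, since a peak remained in only 2 to 4 shAhR-2 libraries.

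**Figure D2:**
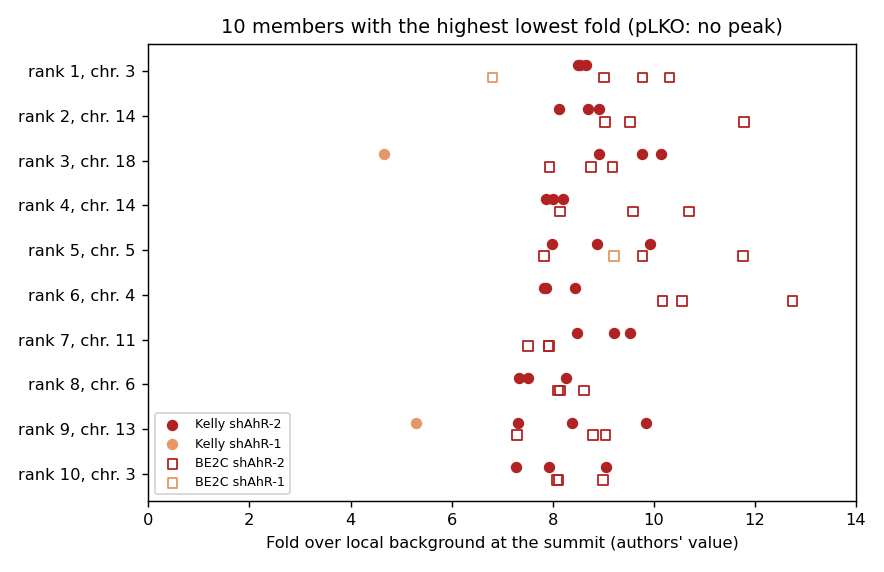
Fold over local background at the summit, the authors' value, at the 10 members with the highest lowest fold, ranked from the top, with Kelly as filled circles and BE2C as open squares; no pLKO library had a peak at any of them. All shAhR-2 points lie between 7.28 and 12.7, and the 4 shAhR-1 points lie between 4.67 and 9.22.

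In 5 of the 6 shAhR-1 libraries, which the rule did not use, fewer than 6% of members had a peak, and replicate 1 of BE2C had one at 25.6%. The 3 Kelly libraries had a peak at 0.381%, 4.96% and 4.99% of members, and the 3 BE2C libraries at 25.6%, 5.95% and 2.74%. The same libraries had a peak at 25.1%, 62.7% and 62.0% in Kelly, and 86.3%, 67.3% and 62.0% in BE2C, of the other regions with a peak in all 6 shAhR-2 libraries. Of all merged regions they covered 5.93% to 15.4% in Kelly and 16.3% to 29.1% in BE2C. In each of the 6 shAhR-1 libraries, presence at members was thus below presence at all regions, with the smallest gap in replicate 1 of BE2C.

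At 1752 members, 66.8%, no shAhR-1 library had a peak, and at 871 members, 33.2%, at least 1 did. Replicate 1 of BE2C shAhR-1 was the only such library at 479 members. The share with any shAhR-1 peak was not worked out over all merged regions. It is at least 29.1% there, the share of replicate 1 of BE2C shAhR-1 alone. Without that library, 392 members, 14.9%, had a shAhR-1 peak, and the mean presence in BE2C was 4.33% in place of 11.4%. A peak in both lines with shAhR-1 was found at 97 members, 3.70%, in at least 1 library of each.

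Few members had a peak in all shAhR-1 replicates of a line. All 3 BE2C libraries had one at 18 members (0.686%), all 3 Kelly libraries at 3 (0.114%), and all 6 at 0. Replicate 1 of Kelly shAhR-1 had a peak at only 10 members, which caps the Kelly count and the count over all 6. The same shares over all regions were not worked out. Where a shAhR-1 peak was present it was weak within its list. Its median fold percentile was 6.0, 24.3 and 19.6 in the 3 Kelly libraries and 25.02, 20.4 and 22.7 in the 3 BE2C libraries, and its median width was 221 to 364 bp. The share with a shAhR-1 peak was larger at stronger and wider members, given here without a test. It was 46.2% in the 656 members with the highest median fold and 24.1% in the 656 with the lowest, and 44.5% in the 656 widest and 23.6% in the 656 narrowest. Without replicate 1 of BE2C shAhR-1 these shares were 20.4%, 11.7%, 21.8% and 8.69%. A shAhR-1 peak can itself widen a merged member, and a wider member is easier to overlap. The contrast by width may thus be partly built in by the merge, and this was not tested.

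The member with a peak in the most shAhR-1 libraries, 5 of 6, was on chromosome 6 at 38036248 to 38037501. Its folds were 5.62, 3.87 and 4.50 in Kelly shAhR-2, and 5.74 and 5.52 in replicates 2 and 3 of Kelly shAhR-1. They were 7.57, 8.30 and 7.51 in BE2C shAhR-2, and 8.40, 4.87 and 4.83 in BE2C shAhR-1. Only replicate 1 of Kelly shAhR-1 had no peak among the hairpin libraries, and no pLKO peak of either line lay within 107 kb. This site was called with both hairpins in both lines.

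A peak in 4 of 6 shAhR-1 libraries was found at 11 members, and the strongest of these was on chromosome 5 at 86176344 to 86177423. There Kelly shAhR-2 had folds of 10.3, 7.31 and 10.2, and BE2C shAhR-2 had 7.08, 8.06 and 8.39. With shAhR-1 the folds were 3.86 and 5.01 in replicates 2 and 3 of Kelly and 8.20 and 4.87 in replicates 1 and 2 of BE2C. The next by lowest fold was 35801944 to 35802537 of chromosome 21, with a peak in all 3 BE2C shAhR-1 libraries and the nearest pLKO peak 13.2 kb away. After it came 97445453 to 97446468 of chromosome 14, with a pLKO peak 12.6 kb away, and 40821601 to 40823462 of chromosome 6, with one only 0.542 kb away.

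Presence with shAhR-1 followed presence with pLKO. Among the 31420 regions with a peak in all 6 shAhR-2 libraries, 8.35% were members, and the others were grouped by how many pLKO libraries had a peak. The share with any shAhR-1 peak was 33.2% with 0 pLKO libraries, 53.8% with 1, 70.0% with 2, 89.2% with 3, 94.4% with 4, 98.5% with 5 and 99.9% with 6. Without replicate 1 of BE2C shAhR-1 it was 14.9% with 0 pLKO libraries and 28.2% with 1. Merged width and strength moved along the same steps, and each step joins peaks of more pLKO libraries. The median width was 818 bp at 0 pLKO libraries, 879 bp at 1 and 1291 bp at 6, and the median fold 4.92, 5.24 and 8.34.

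**Figure D3:**
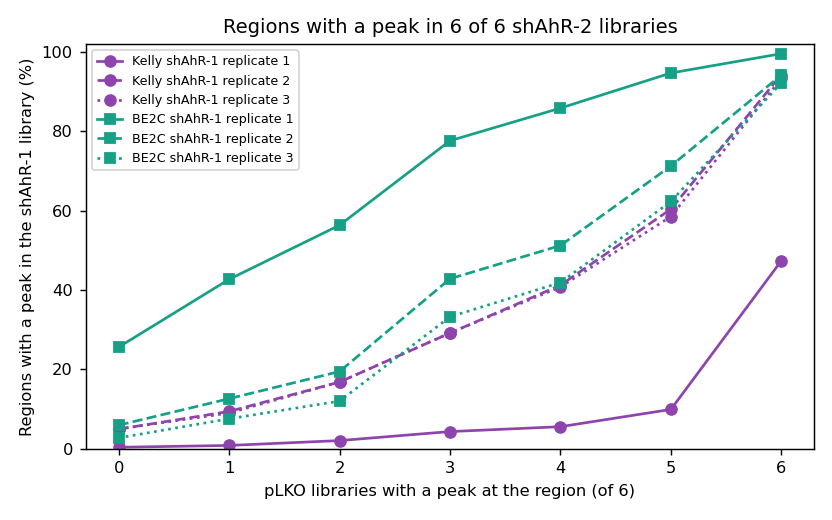
Percent of regions with a peak in each shAhR-1 library (y axis), among regions with a peak in all 6 shAhR-2 libraries, by the number of pLKO libraries that also had one (x axis, 0 to 6); the members are the points at 0. Every shAhR-1 library rises along the axis, and replicate 1 of BE2C, at 25.6% for members, lies above the other 5, which are between 0.381% and 5.95%.

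At the edge of the rule values ran on without a gap. With a peak in all 6 shAhR-2 libraries and in 1 of 6 pLKO libraries there were 2487 regions, with a median fold of 5.24 in shAhR-2, and the single pLKO peak had a median fold of 4.48. That single peak came from replicate 3 of BE2C pLKO at 1055 of them, from replicate 1 of Kelly pLKO at 677 and from replicate 2 of Kelly pLKO at 37. With a peak in 5 of 6 shAhR-2 libraries and in 0 pLKO libraries there were 2806 regions, with a median fold of 4.38 and a shAhR-1 peak at 21.6%.

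To look at the gain in libraries that did not choose the regions, the rule was applied in 1 line and the regions were looked up in the other. In Kelly 11888 regions (8.09% of all) had a peak in all 3 shAhR-2 and in 0 of the 3 pLKO libraries, and in BE2C 14739 did (10.0%). The reverse pattern held at 213 regions in Kelly (0.145%) and at 176 in BE2C (0.12%). The members were the regions common to both lists, 22.1% of the Kelly list and 17.8% of the BE2C list.

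Regions gained in Kelly had a peak in 64.7 ± 1.58% of cases in the BE2C shAhR-2 libraries, 18.6 ± 11.2% in shAhR-1 and 22.7 ± 6.66% in pLKO (SD, n = 3 each). Regions gained in BE2C had one in 45.8 ± 3.39% of cases in the Kelly shAhR-2 libraries, 4.43 ± 3.11% in shAhR-1 and 10.1 ± 6.29% in pLKO (SD, n = 3 each). In both lines each shAhR-2 library lay above every other library, while shAhR-1 and pLKO overlapped. The difference of shAhR-2 from pLKO was 42.0 percentage points in BE2C and 35.6 in Kelly, and the two-sided exact permutation p = 0.1 for both was the smallest that 3 against 3 libraries allow (adjusted p = 0.133 over 8 tests). Against the other 6 libraries of the line together, shAhR-2 was higher by 44.1 points in BE2C and 38.5 in Kelly, with p = 0.0119 in each exact permutation test, again the smallest possible (adjusted p = 0.0476 for both). Every shAhR-2 list was longer than all other lists of its line, so these tests cannot tell a gain from longer lists. With the shAhR-2 and pLKO lists cut to the shortest of both, the differences from the other 6 libraries were 19.3 points in BE2C (exact permutation test, adjusted p = 0.133) and 12.1 in Kelly (adjusted p = 0.0952). In that setting the shAhR-1 lists stayed at full length. With any 1 of the 18 libraries left out, which leaves fewer arrangements, the adjusted p was between 0.0714 and 0.133 in this exact permutation test. The difference of shAhR-1 from pLKO was −4.05 points in BE2C (exact permutation p = 0.6, adjusted p = 0.6) and −5.69 in Kelly (exact permutation p = 0.3, adjusted p = 0.343), and neither passed the threshold.

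The shAhR-2 lists were also the longest, and regions not chosen for a gain separated the libraries as completely, so these p-values are not particular to gained regions. For regions with a peak in any library of the first line, the BE2C shAhR-2 libraries had 51.2% to 53.0%, against at most 34.8% in the other BE2C libraries, and the Kelly shAhR-2 libraries had 38.9% to 42.9%, against at most 27.2% in the other Kelly libraries. Such regions of Kelly had a peak in 52.1 ± 0.925% of cases in BE2C shAhR-2 and 30.7 ± 3.71% in BE2C pLKO (SD, n = 3 each), a difference of 21.4 points. Such regions of BE2C had one in 41.5 ± 2.19% in Kelly shAhR-2 and 22.4 ± 5.77% in Kelly pLKO (SD, n = 3 each), a difference of 19.1 points. Regions with a peak in 3 of 3 shAhR-2 libraries of the first line, whatever pLKO showed, came closer to the gained regions. Their difference of shAhR-2 from pLKO was 24.5 points for regions of Kelly and 26.2 for regions of BE2C, where gained regions had 42.0 and 35.6, and these sets were not tested against each other. The 213 regions lost in Kelly, the opposite set, had a peak in 68.2 ± 1.90% of cases in BE2C shAhR-2 and in 54.9 ± 6.10% in BE2C pLKO (SD, n = 3 each), given without a test. The 176 regions lost in BE2C were found in 8.33 ± 2.37% by Kelly shAhR-2 and in 11.4 ± 5.05% by Kelly pLKO (SD, n = 3 each). With lists cut to the shortest of the line, regions gained in Kelly numbered 459 and were found in 91.1 ± 0.333% by BE2C shAhR-2 and in 80.0 ± 1.36% by BE2C pLKO (SD, n = 3 each). The 1457 regions gained in BE2C were found in 5.95 ± 1.33% by Kelly shAhR-2 and in 3.09 ± 0.247% by Kelly pLKO (SD, n = 3 each). The differences of 11.2 and 2.86 points kept their direction, with exact permutation p = 0.1 each.

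**Figure D4:**
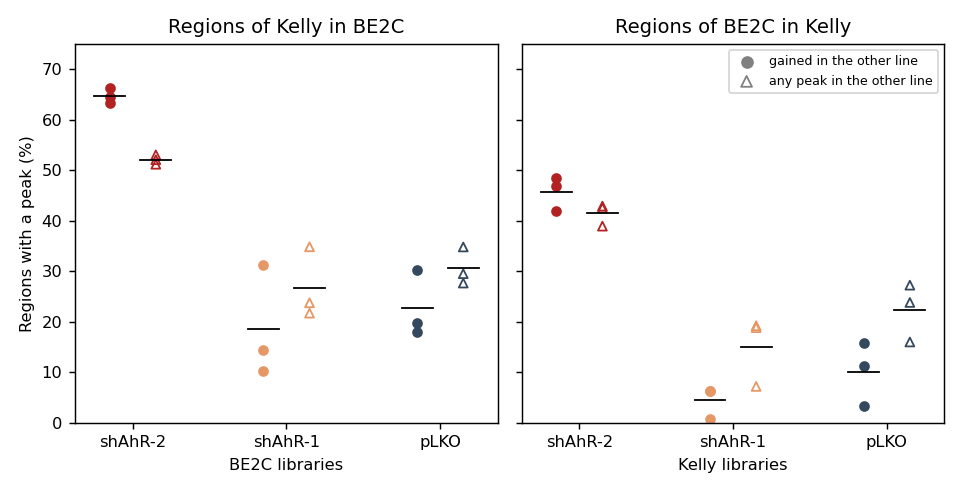
Percent of regions with a peak in each library of the other line, for regions gained with shAhR-2 in 1 line (filled circles) and for regions with any peak in that line (open triangles); short bars are means of 3 libraries. For gained regions the shAhR-2 libraries lie at 63.2% to 66.4% in BE2C and 42.0% to 48.5% in Kelly, above all shAhR-1 and pLKO libraries of the line, which reach 31.3% and 15.8%.

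As merged, members were wider than the typical region and narrower than other regions called in every shAhR-2 library. A member joins peaks of at least 6 libraries by the rule, while a merged region can be a single peak. Merged widths are therefore not compared on equal terms. A merged member had a median width of 818 bp, with quartiles of 664 and 1007 bp, against 500 bp for all 146903 merged regions, 1162 bp at the other regions with a peak in all 6 shAhR-2 libraries and 1372 bp at the 6171 regions with a peak in all 18 libraries. Only 77 members, 2.94%, were wider than 1500 bp, against 20.7% of those other regions and 4.78% of all merged regions. The single peaks at members had a median width of 458 ± 17.2 bp in Kelly shAhR-2 and 504 ± 31.2 bp in BE2C shAhR-2 (SD, n = 3 each). All peaks of the same lists had 492 ± 22.9 bp in Kelly and 563 ± 14 bp in BE2C. Across the 2623 members the Spearman correlation between width and median fold was 0.017, given as a description.

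Most members were single elements placed alike in both lines. At 2424 members, 92.4%, each shAhR-2 library had exactly 1 peak, and the 6 peaks shared a median of 231 bp. At 111 of these members no base was common to all 6 peaks. The median distance between the Kelly and the BE2C summit position was 33 bp, and 81.2% of members had it within 100 bp. The other regions with a peak in all 6 shAhR-2 libraries also had a median of 33 bp, with 83.1% within 100 bp. Replicate summits within a line spread over a median of 80 bp in Kelly and 75 bp in BE2C.

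The widest members were merged from several peaks. The widest, on chromosome 6 at 144605579 to 144608248, spanned 2670 bp with 13 peaks and shAhR-2 folds between 3.09 and 5.65. On chromosome 14 at 80306349 to 80308855 a member of 2507 bp held 15 peaks, and its strongest summits in Kelly and in BE2C were 2084 bp apart. On chromosome 1 at 92950205 to 92952630 a member of 2426 bp held 10 peaks, and its BE2C shAhR-2 folds of 4.44, 4.35 and 3.87 exceeded its Kelly shAhR-2 folds of 2.67, 2.95 and 2.74. Its strongest summits in Kelly and in BE2C were 735 bp apart.

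Most members lay within 50 kb of a pLKO peak, 2203 of them (84.0%). The nearest pLKO peak of either line was at a median of 15.5 kb. It was within 1 kb at 75 members (2.86%), within 10 kb at 944 (36.0%) and within 100 kb at 2489 (94.9%). Distances to pLKO peaks were not worked out for other regions, so these shares do not show that members lay closer to pLKO peaks than other sites. The nearest region with a peak in all 18 libraries was at a median of 143 kb, against 114 kb for the other regions with a peak in all 6 shAhR-2 but not in all 18 libraries. Within 10 kb of such a region lay 3.43% of members and 5.67% of those others.

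Most members had no other member within 100 kb, and the closest groups were small. Another member lay within 100 kb of 749 members, 28.6%, and the median distance to the next member was 236 kb. The same share was 91.6% among the 31420 regions with a peak in all 6 shAhR-2 libraries and 99.8% among all merged regions. Those sets are far larger, so a low share among members goes with their small number and is not shown to be a trait of them. Joined at gaps of up to 100 kb, 1874 members stayed single, 278 pairs and 45 groups of 3 formed, and 12 groups of 4 and 2 groups of 5 were the largest. Among neighbouring regions with a peak in all 6 shAhR-2 libraries, 13.4% of the neighbours of members were members, against 7.89% of the neighbours of non-members. At gaps of up to 10 kb the shares were 9.48% and 5.84%.

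A group of 5 members lay on chromosome 1 between 194172805 and 194323266, a span of 150 kb, and these were all of the 5 regions there with a peak in every shAhR-2 library. Its folds were between 2.77 and 8.70, and 3 of the 5 had a shAhR-1 peak. The other group of 5, on chromosome 17 between 64309810 and 64489192, made up 5 of 11 such regions, with folds between 2.27 and 7.07. The tightest group of 4, on chromosome 11 between 27180111 and 27256207, spanned 76.1 kb, had no shAhR-1 peak and reached a fold of 9.14.

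In windows of 10 Mb, members were found in 281 of 293 windows, with a median of 8. The most, 26, lay on chromosome 7 between 10 and 20 Mb, followed by 25 on chromosome 1 between 200 and 210 Mb. Windows with 24 lay on chromosome 1 between 190 and 200 Mb, chromosome 6 between 150 and 160 Mb, chromosome 7 between 30 and 40 Mb and chromosome 10 between 20 and 30 Mb. As a share of regions with a peak in all 6 shAhR-2 libraries, the 261 windows with at least 50 such regions ranged between 0% and 22.6%, with a median of 8.55%. The highest share was on chromosome 5 between 100 and 110 Mb, where 19 of 84 such regions were members. The windows with the most members were not all high by this share. It was 9.96% on chromosome 1 between 200 and 210 Mb, where 25 of 251 such regions were members. It was 12.5% on chromosome 7 between 30 and 40 Mb, and 16.99% to 21.4% in the other windows named above.

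Members were unevenly spread over the chromosomes. They made up 3.1% of the regions with a peak in all 6 shAhR-2 libraries on chromosome 19 (95% interval 2.20% to 4.23%), 3.34% on chromosome 16 and 3.60% on chromosome 22. They made up 11.2% on chromosome 6 (9.81% to 12.7%), 11.03% on chromosome 13 and 10.6% on chromosome 4. The order depends on the base. Of all merged regions, members were 1.25% on chromosome 19, 0.934% on chromosome 16 and 0.996% on chromosome 22. They were 2.50% on chromosome 6, 2.32% on chromosome 13 and 1.90% on chromosome 4, against 1.79% over all autosomes. By that share chromosome 15 was highest, at 2.53%. Intervals are exact Clopper-Pearson and cover counting error only. Taken 1 line at a time, chromosome 19 was lowest in both. There 14.8% of the regions with a peak in 3 of 3 shAhR-2 libraries were without a pLKO peak in Kelly and 12.1% in BE2C, against 30.0% and 26.8% over all autosomes. The highest were chromosome 4 in Kelly, at 38.7%, and chromosome 13 in BE2C, at 31.2%. Over the 22 chromosomes the 2 lines had a Spearman correlation of 0.61, given as a description, since within a line all chromosomes are read from the same libraries. Base composition, which can differ between chromosomes, was not worked out.

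**Figure D5:**
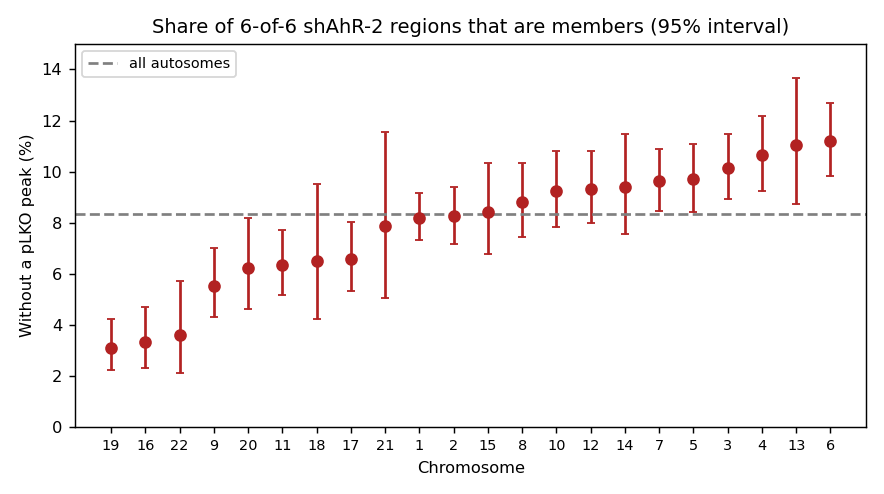
Percent of regions with a peak in all 6 shAhR-2 libraries that were members, by chromosome, ordered from low to high, with 95% exact binomial intervals; the dashed line is the value over all autosomes, 8.35%. Chromosomes 19, 16 and 22 lie at 3.1% to 3.60%, and chromosomes 4, 13 and 6 at 10.6% to 11.2%.

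Local background, which rises in amplified segments and in broad open domains, was low at nearly all members. It was at least 2 times the genome-wide background in all 6 shAhR-2 libraries at 75 members, 2.86%, against 37.2% of the other regions with a peak in all 6. It was at least 5 times at 7 members, among them a pair on chromosome 2 between 16162751 and 16342282, whose folds of 1.28 to 1.5 were the lowest of all members. Peaks with a fold below 1.5 did not count as solved, so the local background of this pair is less certain. A fold divides by local background, so the order of members by fold places such sites last.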

How the data were processed

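ATAC-seq peak lists of 18 libraries were used, 3 for each of 6 groups taken from the titles. The submitters' processing notes list MACS2 2.1.0, BWA 0.7.17, Trimmomatic 0.33, deepTools 3.1.3 and CASAVA 1.8.2, with hg19 as build. Removal of duplicates and a shift of reads for the transposase, which could move summits and calls, are steps not given in the sources used here. Each list holds, as deposited by the authors for a single library, an integer score, a linear fold ratio, a −log10 p-value and a −log10 q-value per peak. The highest q-value was 0.05, and where no peak passed, a list gives no value. Peaks off the autosomes, 2.57% to 3.38% of a list, were left out.

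Lists were merged at 1 bp overlap, and presence of a library at a region meant at least 1 overlapping peak, of which the strongest gave the fold. Overlapping reads and local background were solved from the authors' fold and p, taking p as a Poisson tail and the fold with a pseudocount of 1; 65.1% of peaks were solved in Kelly shAhR-1 replicate 1 and at least 98.9% in every other library, as whole numbers within 0.05. The minimum of these local values over solved peaks served as a library's genome-wide background. A peak with a fold below 1.5 did not count as solved, but its local value was kept in the count of members with high local background. Read totals were not used here. Differences in percent present were tested with two-sided exact permutation tests on the absolute difference, with Benjamini-Hochberg adjustment over 8 tests. Named regions were the 10 with the highest lowest fold, 5 with most shAhR-1 peaks, 3 widest, the longest runs and the fullest windows; the tightest run of 4, the chromosomes and the regions of high local background were chosen after their values were seen. Members and rules were chosen with earlier results of these data known. Scripts used Python 3.11.15, numpy 2.4.6, pandas 2.3.3 and scipy 1.17.1 and were tested on simulated lists. Alternatives covered list length (the first peaks by −log10 p), the q threshold, overlap, chromosomes, the pLKO rule and leaving out each library.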

Additional observations from a re-analysis of the deposited data

How the results depend on the processing

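The number of members moved most with list length; the cause was not tested. With lists cut to the shortest of the line, the 19 members had a mean shAhR-1 presence of 12.3% in Kelly and 28.1% in BE2C, a median width of 1076 bp, a median fold percentile of 40.9, 0% with another member within 100 kb and 15.8% with a pLKO peak within 10 kb. With shAhR-2 and pLKO lists cut to the shortest of both, the 87 members had 12.6%, 25.3%, 925 bp and 4.60% within 100 kb. A −log10 q of at least 5 gave 866 bp, a percentile of 44.8, 26.1% within 100 kb and 27.7% within 10 kb of pLKO. Requiring peaks to cover 50% of a region gave 934.5 bp, 67.9, 24.2% and 85.2%, the last because a smaller pLKO peak may then overlap a member. Allowing a peak in 1 of 6 pLKO libraries gave 5110 members, 44.7% of them within 100 kb of another. Single peaks had a mean median width of 481 bp. Other members lay within 50 kb of 16.3% and within 500 kb of 71.6%.

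With 1 library left out, members numbered between 2622 and 3680. Mean shAhR-1 presence was 2.67% to 4.98% in Kelly and 4.33% to 15.9% in BE2C, median width 758 to 843 bp, fold percentile 48.4 to 52.4, members within 100 kb 28.5% to 36.2% and within 10 kb of pLKO 33.9% to 38.0%. The difference of shAhR-2 from pLKO for regions of the other line was 39.4 to 45.8 points in BE2C and 32.3 to 38.5 in Kelly, and that from shAhR-1 was 41.9 to 52.4 and 38.0 to 43.2. The difference from the other libraries was 41.2 to 46.2 in BE2C and 35.4 to 40.4 in Kelly, where fewer arrangements put every adjusted p above 0.05 (lowest 0.0714). The difference of shAhR-1 from pLKO was −10.4 to 0.174 in BE2C, reversed without replicate 3 of BE2C shAhR-1, and −9.07 to −2.86 in Kelly.

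With lists cut to the shortest of the line, the difference of shAhR-1 from pLKO in Kelly was 0.961 points, reversed. With shAhR-2 and pLKO lists cut it was 0.421, also reversed, but there uncut shAhR-1 lists were set against cut pLKO lists. The cause of either reversal was not tested. With the shAhR-2 and pLKO lists cut, shAhR-2 exceeded the other libraries, uncut shAhR-1 among them, by 19.3 points in BE2C (exact permutation test, adjusted p = 0.133) and 12.1 in Kelly (adjusted p = 0.0952). Merging without shAhR-1 and adding chromosome X moved no value beyond its spread. Same-numbered libraries had correlations of −0.146 to 0.0492 over regions, and libraries of different number −0.111 to 0.189. No pairing by number was seen, which does not exclude a shared culture or batch. With a replicate block, exact over 3 pairs, the differences stayed as given (42.0, −4.05 and 46.1 points in BE2C, 35.6, −5.69 and 41.3 in Kelly), with p of 0.25, the smallest it allows, for both shAhR-2 comparisons in each line, and 0.75 and 0.5 for shAhR-1. Motifs and nearby genes were not run. Depth in reads was not used here, so a missing peak is not a closed site.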

Other observations

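On chromosome X, which the rule left out, 41 regions had a peak in all 6 shAhR-2 and in 0 of the 6 pLKO libraries, 4.66% of the 880 regions there with a peak in all 6 shAhR-2 libraries. A shAhR-1 peak was present at 13 of the 41, 31.7%, and their median width was 769 bp. The strongest by lowest fold lay at 118698836 to 118699649, with shAhR-2 folds between 8.43 and 12.4 and a peak in 1 shAhR-1 library.

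The 4 autosomal regions with the reverse pattern were 134262604 to 134263068 of chromosome 5, 1758779 to 1759146 of chromosome 7, and 18955047 to 18955526 with 21796178 to 21796807 of chromosome 22. At the region on chromosome 5 all 6 shAhR-1 libraries had a peak, and the 6 pLKO folds were between 6.08 and 9.82. At the other 3 regions 1 or 2 shAhR-1 libraries had one.

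On chromosome 9, 40 of 65 members (61.5%) had a shAhR-1 peak, against 33.2% of all members. Without replicate 1 of BE2C shAhR-1 it was 14 of 65 (21.5%), against 14.9% of all members, and chromosome 21 was higher, at 26.1%.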
